A study of Mus with 6 samples.

Results

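Tbr1, Neurod1, Neurod2, Neurod6, Fezf2, Emx1, Etv1 and Mef2c encode transcription factors of pallial excitatory projection neurons. These are the glutamate-releasing cells of cortex, hippocampus and basolateral amygdala. Lmo3, grouped with them here, encodes a LIM-only protein that does not bind DNA itself. These 9 genes were taken by their names from the deposited table of 54532 genes, and each name matched 1 row. RNA was sequenced from the basolateral amygdala of female mice, with 3 libraries labelled wild type (WT) and 3 labelled Cntnap4 knockout (KO), numbered 1 to 3 in each group. The labels give no strain, age, knockout allele or treatment, and they do not say whether a library came from 1 animal or from pooled animals. The p-values therefore measure the spread between these libraries, which may be technical. Cntnap4 encodes a neurexin-like membrane protein of interneurons, and the comparison asks how its loss alters gene expression in this part of the brain.

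The amygdala joins territories of different origin. The basolateral nuclei are pallial, related to cortex, and most of their neurons release glutamate, while the central nucleus is related to striatum and most of its neurons release GABA. Pallial neurons are specified in sequence: homeobox factors such as Emx1 mark the dorsal forebrain, basic helix-loop-helix factors of the NeuroD family drive neuronal differentiation, and factors such as Tbr1 and Fezf2 set the identity and the axonal targets of the postmitotic cell. Several of these genes stay on in adult neurons, where Mef2c also takes part in activity-dependent control of synapses.

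Values are FPKM, reads scaled by gene length and by library size, so they can be compared between genes. The libraries held 15933029 to 17789798 reads as recovered from these values, and 208 to 17554 reads per library stood behind each of the 9 genes. Cntnap4 ranged from 2.15 to 3.90 FPKM over the WT libraries and from 1.08 to 1.28 over the KO libraries, with no overlap. Slc17a7, the vesicular glutamate transporter of pallial neurons, was at 201 to 364 FPKM in the 6 libraries, and Camk2a, a kinase of excitatory neurons, at 341 to 499 (both chosen after their values were seen). The libraries differed in markers of neighbouring tissue. The summed level of 16 striatal and central amygdala markers was 934 FPKM in WT3 and 411 in KO3, against 76.1 to 237 in the other 4 libraries. The summed level of 13 hypothalamic and thalamic markers was 34.2 in WT1 and 25.5 in WT2, against 1.83 to 4.77 in the other 4. Of these markers 11 were below a mean of 1 FPKM, and Nkx2-4 and Six6 were listed at 0 in all 6 libraries. Trh and Avp made up most of the sum in both libraries, at 18.7 and 11.3 FPKM in WT1 and 21.6 and 2.16 in WT2. WT1 also stood apart in the genes described here, so several results that rest on it are given with and without it.

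All 9 genes had a mean of at least 1 FPKM and were among the 13087 genes tested. No member passed the threshold: 0 of 9 had an adjusted p below 0.05 (limma on log2(FPKM + 1), Benjamini-Hochberg over all genes tested), where 0.00764% of all genes did, and the members' adjusted p ranged from 0.302 to 0.727. At an unadjusted p under 0.05 there were 5 of 9 members, against 14.3% of all genes: 4 higher in KO (Tbr1, Neurod6, Fezf2 and Mef2c), against 7.05%, and 1 lower (Lmo3), against 7.25%. This count moved with single libraries. It was 4 without WT1 (1235 of 13070 genes), 2 without KO1 (1292 of 13146) and 6 without KO3 (1536 of 13065). Tbr1, Neurod6 and Mef2c had all KO values above all WT values, 3 of 9, against 11.9% of all genes. Lmo3 lay below the WT range in all KO libraries, 1 of 9, against 10.1%, a share near the background. The other 5 members overlapped between the groups. The median log2 fold change of the 9 was 0.35, and 0.47 without WT1, beside 0.01 over all genes tested, with 7 positive and 2 negative. This rise does not mean larger differences without WT1. Leaving WT1 out enlarged the log2 fold changes of Neurod2 and Etv1 and shrank those of all other members. The middle gene changed from Etv1 to Tbr1, which itself fell from 0.71 to 0.47. In bulk tissue fewer cells of a type and less RNA per cell cannot be told apart.

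**Figure D1:**
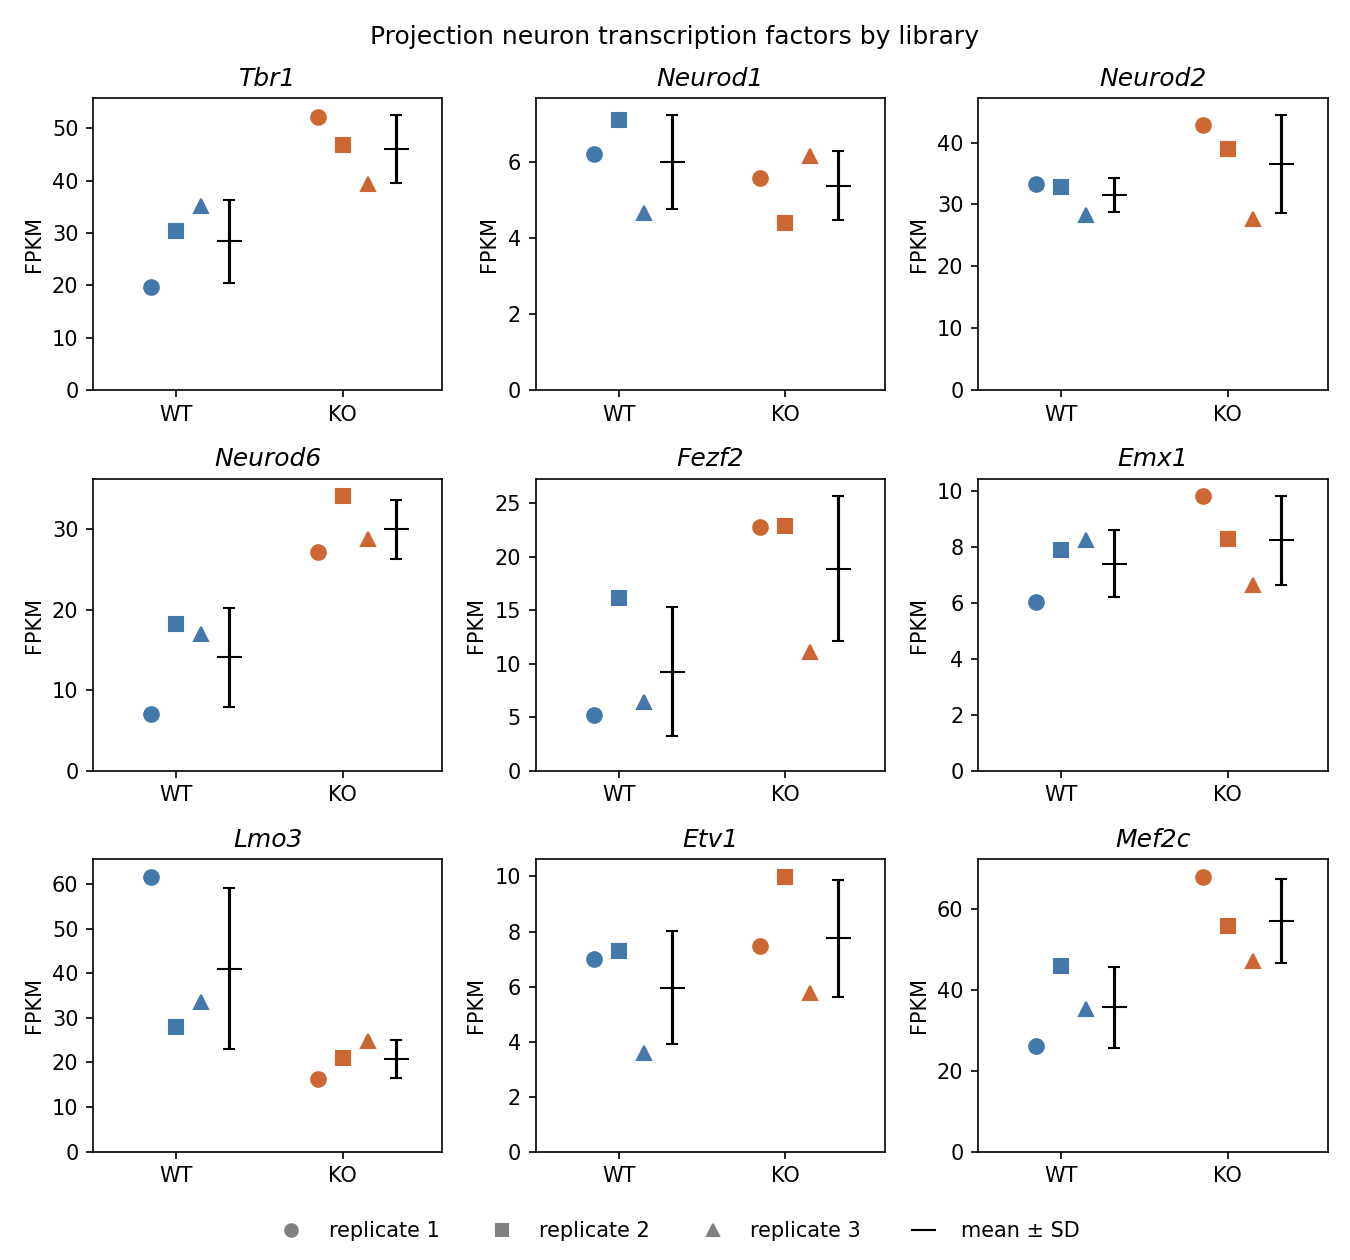
FPKM of each of the 9 genes (vertical axes start at 0) in the 3 WT and 3 KO libraries; points are libraries, marked by replicate number, and the bar beside them is the mean ± SD over 3. Tbr1, Neurod6 and Mef2c lay higher in all 3 KO libraries than in all 3 WT libraries, Lmo3 lay lower, and the other 5 overlapped.

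The NeuroD factors bind E-box sequences as dimers with E proteins and switch on neuronal genes. Neurod6 (ENSMUSG00000037984, chromosome 6, 55677822 to 55681263, minus strand) was at 7.06, 18.3 and 17.0 FPKM in WT1, WT2 and WT3 and at 27.1, 34.1 and 28.8 in KO1, KO2 and KO3. The lowest KO library was above the highest WT library, and WT1 was far below the rest. The means were 14.1 ± 6.13 and 30.02 ± 3.67 (SD, n = 3 here and below), a ratio of 2.13. The log2 fold change was 1.13 (SE 0.32, 95% interval 0.38 to 1.89, limma adjusted p = 0.302), and 0.222% of all genes tested had one at least as large. Without WT1 the ratio was 1.70 and the log2 fold change 0.73 (limma adjusted p = 0.480).

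Neurod2, which in mice is needed for the basolateral amygdala to form normally, showed no such separation. The gene (ENSMUSG00000038255, chromosome 11, 98325415 to 98329648, minus strand) was at 33.2, 32.9 and 28.3 FPKM in the WT libraries and at 42.9, 39.02 and 27.6 in the KO libraries. KO1 and KO2 were above all WT libraries and KO3 was below all of them. The log2 fold change was 0.19 with a 95% interval of -0.22 to 0.59. Neurod1 (ENSMUSG00000034701, chromosome 2, 79452521 to 79456751, minus strand), which acts early in neuronal differentiation, was the lowest of the 3 relatives, at 6.21, 7.11 and 4.67 FPKM in the WT libraries and at 5.58, 4.40 and 6.16 in the KO libraries. The groups overlapped throughout, with a log2 fold change of -0.13 (95% interval -0.52 to 0.27). Cerkl, whose span covers Neurod1 on the same strand, was at 0.131 to 0.333 FPKM.

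The balance of the 3 relatives can be read within each library, where scaling between libraries drops out. Neurod6 was at 0.212, 0.556 and 0.600 times the Neurod2 level in WT1, WT2 and WT3 and at 0.633, 0.875 and 1.04 times in KO1, KO2 and KO3. These ratios did not overlap, but the gap between WT3 and KO1 was small. How many other genes would separate when divided by Neurod2 was not tested. Tbr1, which separated by its own level, lost that separation when divided by Neurod2. Its ratio of 1.25 in WT3 exceeded those of KO1 (1.22) and KO2 (1.20). Fezf2 divided by Etv1 overlapped too, since WT2 (2.22) exceeded KO3 (1.92). Neurod1 was at 0.165 to 0.216 times the Neurod2 level in WT and 0.113 to 0.223 times in KO, where the range of KO enclosed that of WT.

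Tbr1 is a T-box factor of postmitotic glutamatergic neurons that sets laminar identity in cortex, and loss of 1 copy in mice disturbs the axonal connections of the amygdala. The gene (ENSMUSG00000035033, chromosome 2, 61802930 to 61814114, plus strand) was at 19.8, 30.4 and 35.3 FPKM in the WT libraries and at 52.2, 46.8 and 39.4 in the KO libraries. The groups did not overlap, with WT1 lowest and WT3 and KO3 closest to each other. The means were 28.5 ± 7.93 and 46.1 ± 6.43, a ratio of 1.62. The log2 fold change was 0.71 (SE 0.22, 95% interval 0.20 to 1.22, limma adjusted p = 0.303). Without WT1 the ratio was 1.40 and the log2 fold change 0.47 (limma adjusted p = 0.505).

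Fezf2 is a zinc finger factor that directs neurons to subcortical targets. The gene (ENSMUSG00000021743, chromosome 14, 12342094 to 12348189, minus strand) had the widest spread of the 9 within each group, at 5.18, 16.2 and 6.40 FPKM in the WT libraries and at 22.8, 22.9 and 11.1 in the KO libraries. Its highest WT library was 3.13 times its lowest, and KO3 lay below WT2. The means were 9.25 ± 6.03 and 18.9 ± 6.79, a ratio of 2.05. The log2 fold change was 1.04 (SE 0.43, 95% interval 0.04 to 2.05, limma adjusted p = 0.342). It was 0.75 without WT1, 1.49 without WT2 and 1.37 without KO3, and leaving out WT2 or KO3 ended the overlap of the groups.

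Mef2c is a MADS-box factor that limits excitatory synapse number and responds to neuronal activity; it is also made in interneurons, microglia and vessels. The gene (ENSMUSG00000005583, chromosome 13, 83504034 to 83667080, plus strand) was at 26.0, 46.0 and 35.2 FPKM in the WT libraries and at 68.0, 55.8 and 47.2 in the KO libraries. The groups did not overlap, but WT2 and KO3 differed by little. The means were 35.7 ± 10.02 and 57.0 ± 10.5, a ratio of 1.59, with a log2 fold change of 0.68 (SE 0.22, 95% interval 0.16 to 1.20, limma adjusted p = 0.303). Without WT1 the ratio was 1.40 and the log2 fold change 0.48. The log2 fold change was negative for 11 of 11 microglial markers, and without WT3 for 9, with 2 positive. Their summed level was 196 to 266 FPKM in WT and 138 to 174 in KO. Of the 11, 7 were lower in KO without overlap, against 10.1% of all genes. The part of microglia in the Mef2c level was not tested.

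Emx1 and Etv1 were expressed at low levels that overlapped between the groups. Emx1 (ENSMUSG00000033726, chromosome 6, 85187438 to 85204462, plus strand), the homeobox factor of the dorsal telencephalon, was at 6.05, 7.91 and 8.27 FPKM in the WT libraries and at 9.81, 8.29 and 6.64 in the KO libraries. KO3 lay below both WT2 and WT3. Its log2 fold change was 0.13 with a 95% interval of -0.25 to 0.52, and 0.01 without WT1. Etv1 (ENSMUSG00000004151, chromosome 12, 38779380 to 38870484, plus strand), an ETS factor of deep-layer cortical neurons, was at 6.99, 7.30 and 3.59 FPKM in the WT libraries and at 7.48, 10.00 and 5.76 in the KO libraries. WT3 and KO3 were the lowest of their groups. Its log2 fold change was 0.35 with a 95% interval of -0.28 to 0.98, and 0.07 without WT3.

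Lmo3 went the other way. It encodes a LIM-only protein, which does not bind DNA itself and acts through partners such as Ldb1, and is known as a gene of the basolateral amygdala. The gene (ENSMUSG00000030226, chromosome 6, 138362918 to 138581968, minus strand) was at 61.7, 27.9 and 33.5 FPKM in the WT libraries and at 16.4, 21.01 and 24.9 in the KO libraries. No KO library reached the lowest WT library, and WT1 was the highest of all. The means were 41.04 ± 18.1 and 20.8 ± 4.28, a ratio of 0.506, with a log2 fold change of -0.89 (SE 0.29, 95% interval -1.58 to -0.19, limma adjusted p = 0.303). Without WT1 the ratio was 0.676 and the log2 fold change -0.56 (limma adjusted p = 0.505). The antisense gene A830011K09Rik lies within Lmo3 and was at 0.384 to 1.27 FPKM, highest in WT1. No source used here states whether reads were counted by strand, so its reads and those of Lmo3 may not be told apart.

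**Figure D2:**
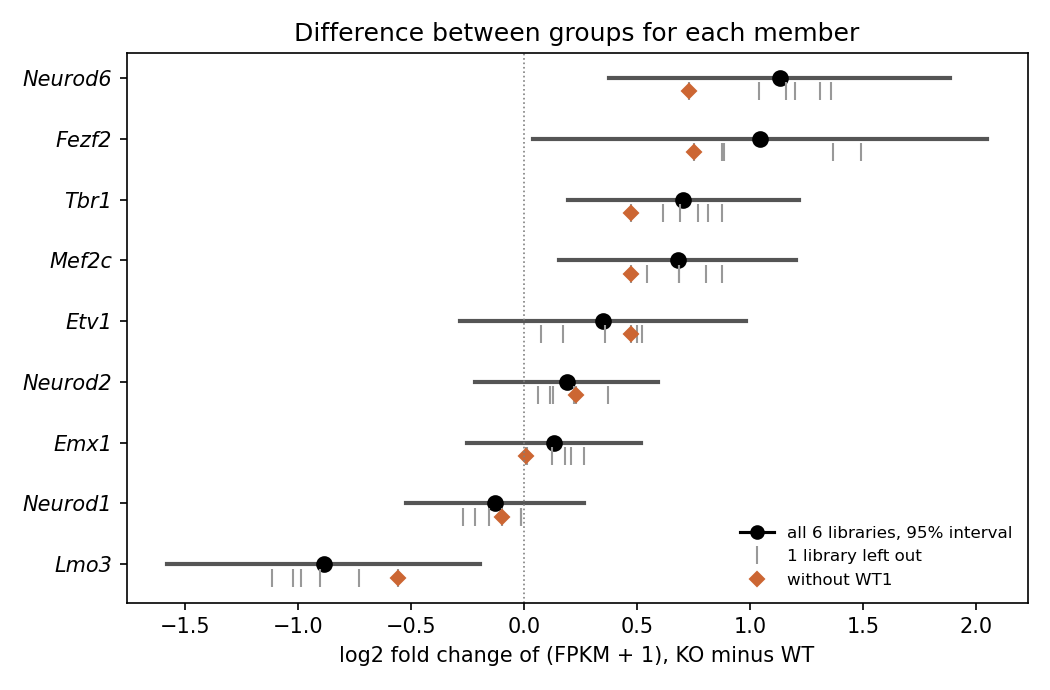
Log2 fold change of FPKM + 1 (horizontal axis, KO minus WT) for each member; dots are all 6 libraries with the 95% interval of limma, grey ticks leave out 1 library, and diamonds leave out WT1. The interval lies above 0 for Neurod6, Fezf2, Tbr1 and Mef2c and below 0 for Lmo3, and leaving out WT1 brings each of these 5 closer to 0.

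WT1 was the lowest of the 6 libraries for 5 of the 9 genes (Tbr1, Neurod6, Fezf2, Emx1 and Mef2c) and the highest for Lmo3. As deviations from the gene's mean over the 6 libraries on the log2(FPKM + 1) scale, WT1 was at -1.37 for Neurod6, -1.10 for Fezf2, -0.82 for Tbr1 and -0.75 for Mef2c, and at 1.10 for Lmo3. KO3 was the lowest of the KO libraries for 6 of the 9. Without WT1, Tbr1, Neurod6 and Mef2c were still higher and Lmo3 still lower without overlap. With those 5 libraries, 15.1% of all genes were higher and 13.3% lower without overlap. Without KO3, 7 members were higher in both remaining KO libraries than in every WT library, against 19.5% of all genes. Trh and Avp, which carried the hypothalamic sum, were highest in WT1 and WT2, and markers of striatum moved with WT3 and KO3. The part of these genes in the members' levels was not tested.

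**Figure D3:**
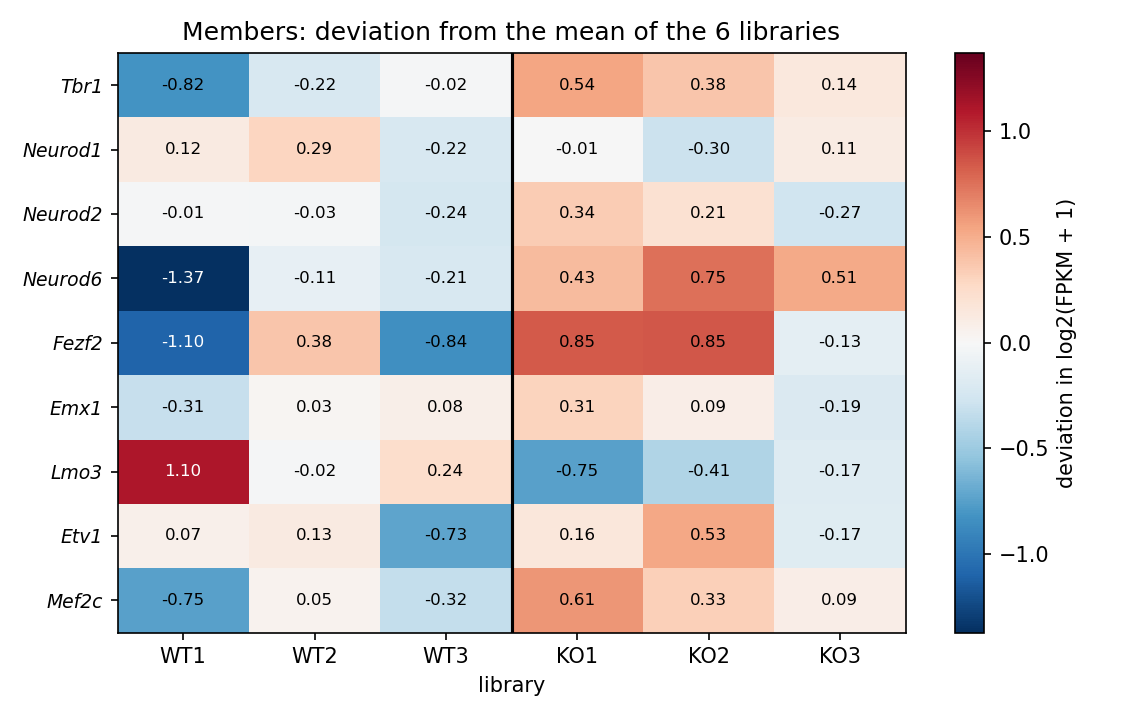
Deviation of each member from its mean over the 6 libraries (colour and printed value, log2(FPKM + 1) scale), with members in rows and libraries in columns. WT1 is lowest for Neurod6 (-1.37) and highest for Lmo3 (1.10), and KO1 and KO2 are above 0 for Tbr1, Neurod2, Neurod6, Fezf2, Emx1, Etv1 and Mef2c.

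The order of the levels per length differed between the groups. In WT it ran Lmo3, Mef2c, Neurod2, Tbr1, Neurod6, Fezf2, Emx1, Neurod1 and Etv1, from a mean of 41.04 to 5.96 FPKM. The only neighbours whose ranges did not overlap were Tbr1 and Neurod6. In KO it ran Mef2c, Tbr1, Neurod2, Neurod6, Lmo3, Fezf2, Emx1, Etv1 and Neurod1, from 57.0 to 5.38 FPKM. There the neighbours without overlap were Neurod6 and Lmo3, and Fezf2 and Emx1. Lmo3 thus stood at rank 1 of 9 in WT and rank 5 in KO. Without WT1 it stood at rank 3 in WT, at a mean of 30.7 FPKM, behind Mef2c at 40.6 and Tbr1 at 32.8.

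Ratios within a library set Lmo3 against Tbr1 and Neurod6, which were both higher in KO. Lmo3 was at 3.12, 0.917 and 0.951 times the Tbr1 level in WT1, WT2 and WT3 and at 0.313, 0.449 and 0.632 times in KO1, KO2 and KO3. WT1 was more than 3 times the other WT libraries. Against Neurod6, Lmo3 was at 8.74, 1.52 and 1.98 times in the WT libraries and at 0.603, 0.615 and 0.865 times in the KO libraries. The groups could not overlap in either ratio, because Lmo3 was lower and Tbr1 and Neurod6 higher in KO without overlap.

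Relative to Slc17a7, a measure of pallial glutamatergic RNA in the same library chosen after its values were seen, 1 of the 9 members was free of overlap, where 0.871% of all genes were higher and 4.56% lower without overlap. Mef2c was at 9.13%, 16.4% and 17.0% of the Slc17a7 level in the WT libraries and at 18.7%, 20.5% and 23.5% in the KO libraries, with no overlap. Tbr1 was at 6.94%, 10.9% and 17.0% in the WT libraries and at 14.3%, 17.2% and 19.6% in the KO libraries, where KO1 lay within the WT range. Neurod6 was at 2.48%, 6.53% and 8.17% in the WT libraries and at 7.46%, 12.5% and 14.3% in the KO libraries, with the same overlap at KO1. Lmo3 was at 21.7%, 9.95% and 16.1% in the WT libraries and at 4.50%, 7.72% and 12.4% in the KO libraries, overlapping at KO3. Slc17a7 itself was at 258 ± 43.2 and 279 ± 81.7 FPKM, with a log2 fold change of 0.09 (SE 0.23).

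Among 15 relatives of the members by family, 8 were expressed above 1 FPKM. The relatives Eomes, Tbx21, Neurod4, Neurog1, Neurog2, Fezf1 and Mef2b were below that level. Of the 8 tested, 5 had a positive and 3 a negative log2 fold change (median 0.13), and 0 passed the threshold. Of these 8, 2 were higher in KO without overlap, against 11.9% of all genes, and 1 lower, against 10.1%. The LIM-only relatives went opposite ways: Lmo4 averaged 48.5 ± 4.52 FPKM in WT against 69.8 ± 11.0 in KO, and Lmo1 at 6.30 ± 0.14 and 4.36 ± 0.57, both without overlap. Mef2a was at 11.4 ± 0.49 and 13.1 ± 0.61, also without overlap, and Etv4 at 2.47 ± 0.62 and 1.73 ± 0.12.

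Partners and inhibitors of the members gave 10 positive and 8 negative log2 fold changes of 18, with a median of 0.04 and 0 past the threshold. Of these 18, 3 were higher in KO without overlap, against 11.9% of all genes, and 1 lower, against 10.1%. Cask, a scaffold kinase that acts with Tbr1, averaged 7.49 ± 0.53 FPKM in WT against 9.34 ± 0.40 in KO without overlap. Tcf4, an E protein that dimerises with NeuroD factors, was at 9.13 ± 1.86 and 11.8 ± 1.20. The Id proteins bind E proteins and keep them from DNA. Id3 was at 23.0 ± 5.51 and 14.2 ± 3.29, and Id4 at 30.2 ± 2.29 and 22.8 ± 5.03, the latter without overlap. Id proteins are also abundant in glia and vessels, whose markers are given below.

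Genes described as targets of these factors were split, with 8 of 15 positive and 7 negative, a median of 0.09 and 0 past the threshold. None of the 15 was without overlap between the groups, against 22.0% of all genes. Bcl11b, an identity factor of subcerebral and striatal neurons, averaged 18.4 ± 4.68 FPKM in WT against 12.7 ± 1.69 in KO, highest in WT3 at 23.4. Grin2b, an NMDA receptor subunit and described target of Tbr1, was at 15.9 ± 3.38 and 20.6 ± 3.95. Cntn2, an axonal adhesion protein, was at 10.5 ± 4.50 and 15.3 ± 2.18, and Ntng1, another axonal adhesion protein, at 3.14 ± 0.96 and 2.30 ± 0.17.

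Other transcription factors of pallial neurons leaned the same way as most members. Of 30 listed, 28 were tested, 22 with a positive and 6 with a negative log2 fold change (median 0.27). Without overlap between groups there were 6 of 28 higher in KO, against 11.9% of all genes, and 0 lower, against 10.1%, and 0 passed the threshold. Pou3f2, a POU factor of upper-layer neurons, averaged 3.64 ± 1.93 FPKM in WT against 7.45 ± 1.40 in KO, Zbtb18, a zinc finger repressor, at 55.02 ± 1.68 and 66.1 ± 0.36, and Sox5, a factor of deep-layer neurons, at 2.51 ± 0.38 and 3.41 ± 0.16. Nr2f2, a nuclear receptor of caudal and ventral territories, was at 15.5, 7.96 and 2.28 in WT and 1.07 to 2.40 in KO, so that KO1 lay above WT3. Without WT1 the list had 20 positive and 8 negative and a median of 0.14. Of the 802 other tested genes to which the table gives a transcription factor family, 14.2% were higher and 4.86% lower without overlap (median 0.08).

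Among markers of glutamatergic neurons that are not transcription factors, 12 of 18 were positive and 6 negative (median 0.06). The balance moved with single libraries: 8 were positive and 10 negative without WT1 (median -0.02), 8 of 17 positive and 9 negative without WT3 (median -0.02), and 13 positive and 5 negative without WT2 (median 0.07). The difference between this list and the members was not tested. Cnih2, an AMPA receptor auxiliary subunit, averaged 212 ± 32.4 FPKM in WT against 141 ± 5.89 in KO without overlap. Of the 18 it alone was without overlap, against 22.0% of all genes. Lypd1, a GPI-anchored protein, was at 22.4, 19.6 and 3.37 in WT and 4.15 to 4.65 in KO, so that WT1 and WT2 alone were high. None of the 18 passed the threshold (0 of 18), except that 1 did when WT3 was left out.

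GABAergic markers and factors were even between groups, with 8 positive and 8 negative of 16 tested (median -0.03). Slc32a1, the vesicular GABA transporter, averaged 49.5 ± 5.46 FPKM in WT against 38.2 ± 4.27 in KO, and Gad1, which makes GABA, at 48.5 ± 3.94 and 55.5 ± 4.57. Oligodendrocyte precursor markers were negative for 8 of 8, with a summed level of 116 to 146 FPKM in WT and 97.8 to 98.3 in KO. Of these 8, 5 were lower in KO without overlap, against 10.1% of all genes. The count was 2 of 10 for astrocyte markers and 2 of 13 for vessel and meningeal markers. Astrocyte markers were negative for 9 of 10, with sums of 413 to 642 in WT and 452 to 528 in KO, and a median log2 fold change of -0.17 that was -0.08 without WT3. Vessel and meningeal markers were negative for 11 of 13, with sums of 134 to 208 in WT, the highest in WT3, and 114 to 140 in KO. Without WT3, 6 of the 13 were positive and 7 negative, and the median log2 fold change was -0.12 instead of -0.21. Mature oligodendrocyte markers were positive for 10 of 10, with sums of 280 in WT1 and 550 to 830 in the other 5 libraries. Without WT1, 6 of the 10 were positive and 4 negative, and the median log2 fold change was 0.12 instead of 0.49. No marker in these lists was at 0 in any library, and 0 of them passed the threshold. Their part in the members' levels was not tested.

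**Figure D4:**
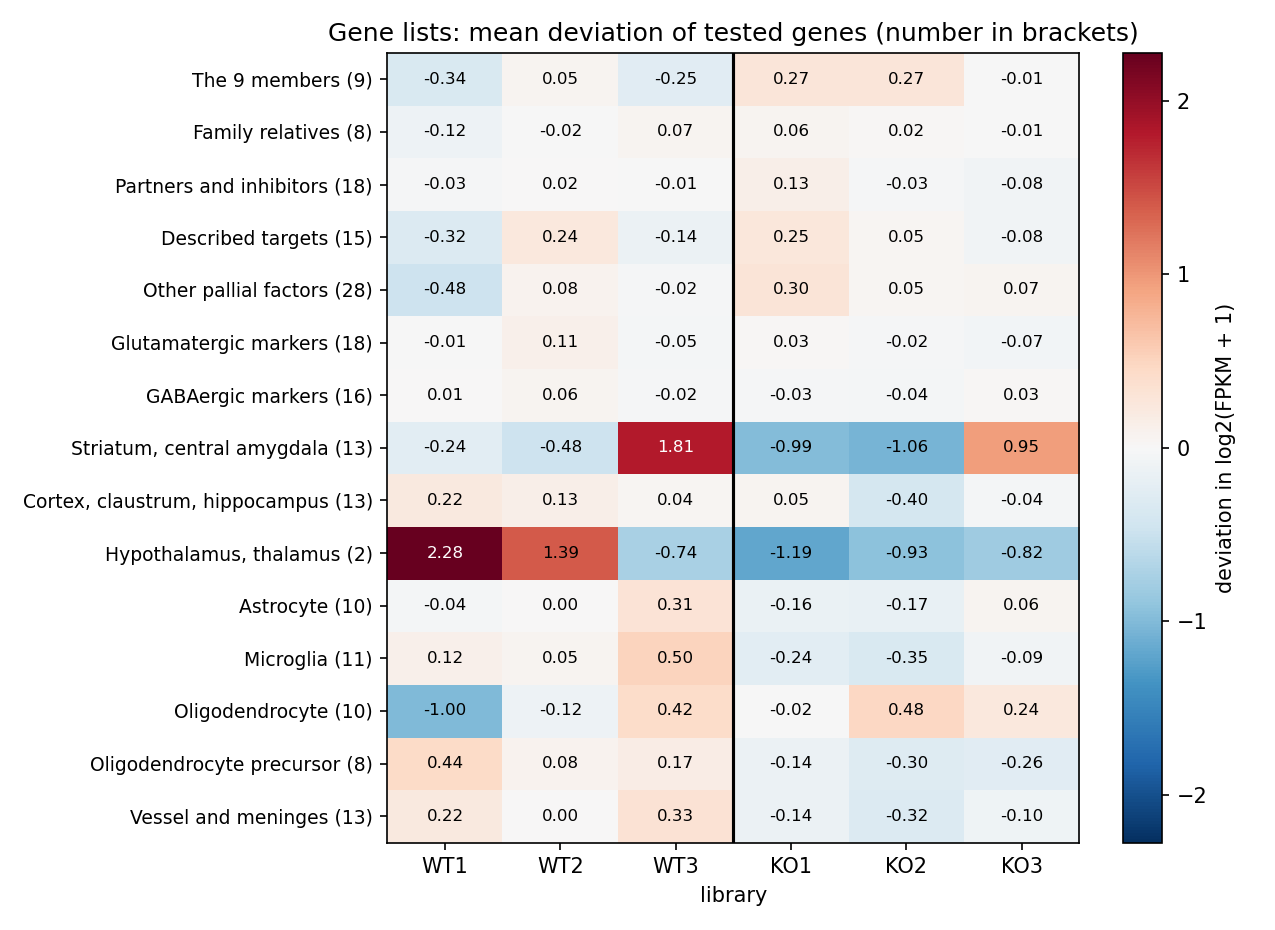
Mean deviation of the tested genes of each list from the gene's mean over the 6 libraries (colour and printed value, log2(FPKM + 1) scale), with lists in rows and libraries in columns. Members are lowest in WT1 (-0.34) and other pallial factors too (-0.48). Striatal genes are high in WT3 and KO3, and the tested hypothalamic genes, Trh and Avp, in WT1 and WT2.

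Long genes were higher in KO in these libraries, and the members differ in length. Neurod1, Neurod2, Neurod6, Fezf2 and Emx1 lie among protein-coding genes of 2000 to 4000 bases. There the median log2 fold change was -0.06, and 6.28% were higher and 12.5% lower without overlap. Among those of 4000 to 8000 bases, with Tbr1 and Lmo3, the median was 0.04, and 13.4% were higher and 7.16% lower. Among those of 8000 bases or more, with Etv1 and Mef2c, the median was 0.13, and 26.5% were higher and 3.02% lower. With the length trend removed, an alternative chosen after the data were seen, the log2 fold change was 0.49 for Mef2c, 0.19 for Etv1, 0.67 for Tbr1, 1.23 for Neurod6 and -0.91 for Lmo3.

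Scaling the libraries to a common sum or to pan-neuronal genes moved the background but not which members overlapped, unlike the levels relative to Slc17a7 given above. With libraries scaled to 1 common sum, 14.6% of all genes were higher and 6.07% lower without overlap. With libraries scaled to 8 pan-neuronal genes, 5.24% were higher and 19.2% lower, and the median of all genes shifted by -0.11. The members' median log2 fold change was then 0.24, against 0.35 unscaled. These 8 genes differed between groups themselves, with a geometric mean of 107 to 116 FPKM in WT and 115 to 125 in KO. Unscaled, 2 of them were higher in KO without overlap, against 11.9% of all genes, and 1 lower, against 10.1%. Under both, Tbr1, Neurod6 and Mef2c were higher and Lmo3 lower without overlap.

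The genes whose levels ran most like each member over the 6 libraries were found by Pearson correlation of log2(FPKM + 1) among 7294 other protein-coding genes with a mean of at least 5 FPKM. The group difference and WT1 shape these patterns, and 6 libraries leave many near-perfect matches. Neurod6 was most like Asap2, an Arf GTPase regulator (r = 0.999), and 201 genes reached 0.95 with it. Mef2c was most like Ncor1, a nuclear receptor corepressor, and Clstn2, a synaptic calsyntenin (r = 0.997 for each), with 233 genes at 0.95 or above. Tbr1 was most like Aplp2 (r = 0.993) and Fezf2 most like Mapt, the tau gene (r = 0.997). Lmo3 was most like Snrnp25, a spliceosome protein (r = 0.996), with 41 genes at 0.95 or above. For Neurod1 only 1 gene, Psma2, a proteasome subunit, reached 0.95 (r = 0.960).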

How the data were processed

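The authors deposited FPKM per gene for the 6 libraries, in a table that also gives each gene's position, length, biotype and transcription factor family per the file headers. The builds GRCm38 and mm10 are named in the submitters' processing notes; RNA came from a Qiagen column kit and libraries from a SMARTER mRNA kit, per the labels' protocols. Aligner, counter, annotation version and strand use stand in no source used here. Reads were recovered as FPKM times length divided by the value of 1 read in that library, and 100% of values came out whole within 0.01.

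Genes with a mean of at least 1 FPKM were tested as log2(FPKM + 1) with limma 3.58.1 in R 4.3.3 (variance trend, two-sided, Benjamini-Hochberg, threshold 0.05); a fold change on that scale understates changes of low genes. The fit was also run on simulated counts with independent libraries, which cannot show how it behaves with the differences between libraries described here. An exact permutation test of 3 against 3 cannot give a p below 0.1. Deviations from the group means correlated weakly between same-numbered libraries (0.17, 0.15 and 0.33), and KO1 correlated best with WT2 (0.28). These values do not establish a pairing, so a fit with the replicate number as a block was only an alternative. That fit changed no member's call. Alternatives changed pseudocount, filter, scaling, variance model, weights, voom on recovered reads and the libraries used.

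The members and gene lists were chosen with earlier results of these data known. Named genes are the 9 members, up to 4 genes of smallest p per list and up to 2 most correlated genes per member; not all are printed.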

Additional observations from a re-analysis of the deposited data

How the results depend on the processing

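The 9 log2 fold changes kept their direction under all 18 alternatives (16 planned, 2 chosen after the data were seen), and 0 of the 9 members passed the threshold under any of them. The smallest adjusted p of any member in limma was 0.101, for Tbr1. The members' median log2 fold change, 0.35 with all libraries, ranged from 0.17 without KO2 to 0.52 without KO3. The most fragile values were those of Neurod1 (-0.36 to -0.01), Emx1 (0.01 to 0.26) and Etv1 (0.07 to 0.52). With the replicate block 0 members passed, and the adjusted p of Neurod6 was 0.221. Over all genes, 1 gene passed in limma, and 0 passed with no filter (2487 at an unadjusted p under 0.05), quantile normalization (1940), no variance trend (1826), the replicate block (2327), the length trend removed (1528) and pan-neuronal scaling (2307). With 1 library left out the count ranged from 0 to 9, the highest without WT3. At an unadjusted p under 0.05 the split was 923 higher and 949 lower, 1224 and 580 with a common sum, and 370 and 1937 with pan-neuronal scaling. Precision is limited by 3 libraries a group rather than by reads: the lowest member had 208 reads in a library.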

Other observations

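Of 13 tested markers of neighbouring cortex, claustrum and hippocampus, 4 had a positive and 9 a negative log2 fold change (median -0.27, and -0.03 without KO2). Of these 13, 1 was higher in KO without overlap, against 11.9% of all genes, and 1 lower, against 10.1%. The lower gene was Fibcd1, which had the smallest p of this list. It was at 3.93, 3.64 and 3.52 FPKM in the WT libraries and at 1.88, 1.89 and 2.57 in the KO libraries (limma adjusted p = 0.302). Wfs1, Calb1 and Lamp5, also of this list, varied with single libraries. Wfs1, the wolframin gene and a marker of hippocampal and amygdalar neurons, was at 155, 67.1 and 31.1 FPKM in the WT libraries and at 61.5, 19.4 and 19.7 in the KO libraries. Calb1, a calcium buffer, was at 64.3, 38.5 and 27.4 in the WT libraries and at 29.9, 17.3 and 25.3 in the KO libraries. Both were highest in WT1, as Lmo3 was, and overlapped between the groups. Lamp5, a membrane protein of upper-layer cortex, was at 20.03, 47.4 and 50.5 in the WT libraries and at 51.5, 64.8 and 62.2 in the KO libraries, lowest in WT1 as Neurod6 was, with no overlap. None of Wfs1, Calb1 and Lamp5 passed the threshold in limma (adjusted p of 0.408, 0.347 and 0.381).

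The log2 fold change was negative for 13 of 13 tested markers of striatum and central amygdala, with a median of -0.53, and WT3 and KO3 were both high. This direction rested on WT3: without it 8 of 12 tested markers were positive and 4 negative, with a median of 0.23. Without KO3 the median was -1.26, and it was -0.25 without KO1, -0.30 without KO2, -0.89 without WT1 and -1.03 without WT2. Genes of subcortical neuropeptides also differed by library. Penk, the enkephalin precursor, was at 138, 43.4 and 250 FPKM in the WT libraries and at 8.76, 12.03 and 98.3 in the KO libraries, so that KO3 lay above WT2. Trh, the thyrotropin-releasing hormone precursor, was at 18.7, 21.6 and 1.28 in the WT libraries and at 0.308, 0.792 and 2.02 in the KO libraries, high in WT1 and WT2 alone.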
